A study of Mus musculus with 11 samples.

Results

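The immediate early transcription factor genes described here are Fos, Fosb, Junb, Egr1, Egr2, Egr3, Egr4, Npas4, Nr4a1 and Ier2, chosen by name as nuclear factors known for rapid, transient induction by neuronal activity and growth factors. The choice was made with earlier results of these data known. All 10 were found among the 16228 genes of the expression table, and all 10 were among the 14330 genes that passed the filter on low values. RNA was taken with a 4 mm punch from the cerebral cortex of mice at postnatal day 30 and sequenced in bulk, in a study of the atypical protein kinase C genes Prkci and Prkcz in the oligodendrocyte lineage. The groups were 4 mice labelled Ng2 Cre+ Prkci f/f (Prkci cKO), 3 mice labelled Ng2-Cre+ Prkcz f/f (Prkcz cKO) and 4 controls, of which replicates 3 and 4 were labelled Pkcz f/f and replicates 1 and 2 Pkcz f/+. No control carried a labelled Cre or came from the Prkci line, so Cre, line and deletion cannot be told apart in a comparison with controls. Ng2-Cre is driven by regulatory sequence of Cspg4, the gene of the NG2 proteoglycan of oligodendrocyte precursors. The labels give no treatment, and nothing in the sources used here gives the time or order of dissection.

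Immediate early genes need no new protein synthesis to be transcribed. In neurons, calcium entry and growth factor signalling activate CREB and SRF, factors already bound near these genes, and transcript levels climb and decay again over a short time. Fos and Fosb encode leucine zipper proteins that pair with Jun family proteins such as Junb to form the AP-1 factor. Egr1 to Egr4 encode zinc finger factors that bind GC-rich sites. Npas4 encodes a neuronal basic helix-loop-helix PAS factor, Nr4a1 an orphan nuclear receptor, and Ier2 a small nuclear protein of the immediate early response. In cortex their levels are widely used as a marker of recent neuronal activity.

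Values are the authors' normalised expression signal, whose sums per library lay between 1021766.98 and 1082561.71, so 1 unit is close to 1 CPM. Relative depth, estimated from the smallest steps between low values, came to 14740000 reads in Prkcz cKO replicate 3 and 20620000 to 28170000 reads in the other 10 libraries. Neuronal identity of the tissue was clear in every group. Slc17a7, the vesicular glutamate transporter of cortical excitatory neurons, averaged 2163 ± 45.7 in Prkci cKO (SD, n = 4), 2125 ± 53.3 in Prkcz cKO (SD, n = 3) and 2017 ± 62.1 in controls (SD, n = 4). The targeted gene Prkci was 67.0 ± 1.48 in Prkci cKO and 87.8 ± 2.52 in controls (SD, n = 4 each; log2 difference -0.39, past the threshold of 0.05 on limma's adjusted p). The targeted gene Prkcz was 278 ± 15.1 in Prkcz cKO (SD, n = 3) and 323 ± 20.2 in controls (SD, n = 4), a difference of -0.22 on the log2 scale that did not pass (limma adjusted p = 0.097).

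Promoters of some members are printed because CREB and SRF sites are the textbook elements of this gene class. Egr2, which passed the test in neither knockout, is among them, and Fosb and Egr4 are not. RefSeq promoter windows of 300 bases (250 before and 50 from the annotated start) were on hand for 7 of the 10 members (Fos, Fosb, Junb, Egr2, Egr4, Npas4 and Nr4a1). Lower case runs 5′ to 3′ on the gene's strand, and capitals mark the CREB core TGACG or its complement CGTCA in Fos, Junb, Npas4 and Nr4a1, and the CArG box bound by SRF in Egr2. The windows are on build GRCm38.p6 at chr12:85473640-85473939 (Fos, plus strand), chr8:84978699-84978998 (Junb, minus strand), chr10:67537619-67537918 (Egr2, plus strand, 1 of its 5 windows), chr19:4989922-4990221 (Npas4, minus strand) and chr15:101266596-101266895 (Nr4a1, plus strand).
Fos: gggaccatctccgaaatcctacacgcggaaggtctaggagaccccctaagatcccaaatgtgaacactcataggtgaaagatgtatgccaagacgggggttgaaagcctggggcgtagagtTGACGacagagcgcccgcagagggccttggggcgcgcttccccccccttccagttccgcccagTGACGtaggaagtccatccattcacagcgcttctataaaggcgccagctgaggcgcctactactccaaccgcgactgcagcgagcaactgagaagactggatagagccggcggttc
Junb: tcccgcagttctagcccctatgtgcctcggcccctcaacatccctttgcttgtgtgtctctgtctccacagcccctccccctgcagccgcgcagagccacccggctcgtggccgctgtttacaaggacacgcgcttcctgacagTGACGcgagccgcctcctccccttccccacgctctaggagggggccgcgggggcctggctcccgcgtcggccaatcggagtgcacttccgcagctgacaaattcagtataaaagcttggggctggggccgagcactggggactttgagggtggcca
Egr2: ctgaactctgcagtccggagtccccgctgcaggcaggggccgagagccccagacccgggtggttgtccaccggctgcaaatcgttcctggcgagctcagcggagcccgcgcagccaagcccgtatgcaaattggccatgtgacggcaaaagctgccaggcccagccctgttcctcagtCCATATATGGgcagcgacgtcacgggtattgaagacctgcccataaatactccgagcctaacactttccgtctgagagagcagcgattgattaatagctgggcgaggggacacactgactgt
Npas4: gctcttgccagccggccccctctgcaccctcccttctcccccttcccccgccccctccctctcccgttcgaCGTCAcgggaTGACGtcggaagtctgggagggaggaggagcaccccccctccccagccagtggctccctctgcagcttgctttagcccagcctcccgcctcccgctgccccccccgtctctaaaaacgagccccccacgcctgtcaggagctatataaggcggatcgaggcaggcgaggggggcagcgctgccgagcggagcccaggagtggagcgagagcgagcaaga
Nr4a1: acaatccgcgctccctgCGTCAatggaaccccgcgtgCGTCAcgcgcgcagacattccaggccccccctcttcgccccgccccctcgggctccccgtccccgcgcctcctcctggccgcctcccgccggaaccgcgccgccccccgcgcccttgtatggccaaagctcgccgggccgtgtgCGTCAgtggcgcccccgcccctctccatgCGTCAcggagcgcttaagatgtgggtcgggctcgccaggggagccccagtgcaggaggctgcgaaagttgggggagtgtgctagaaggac
The core TGACG, searched on both strands, was present in all 7 members with a window, against 23.0% of the 27025 genes with a window and 20.8% of their 32851 windows. It lay 66 and 129 bases upstream of the start in Fos, 106 in Junb, 55 and 111 in Egr2, 169 and 179 in Npas4, and 40, 69, 213 and 233 in Nr4a1. The complete palindrome TGACGTCA, which contains the core, was in none of the 7, against 1.79% of all windows. The CArG box was in Egr2 alone of the 7 (72 bases upstream in the printed window), against 1.81% of genes and 1.63% of all windows. Sites more than 250 bases upstream lay outside the windows and were not searched. The EGR motif GCGGGGGCG was in Fosb and Nr4a1, against 2.91%, and its variant GCGTGGGCG in none, against 0.612%. The AP-1 motif TGANTCA was likewise in none of the 7, against 7.81% of all windows. TATAAA was in Fos and Junb, against 13.6%. These matches describe the letters of the windows and are not measured binding sites.

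Of the 10 members, 5 fell in Prkci cKO against controls (Fos, Junb, Npas4, Nr4a1 and Ier2) and 6 fell in Prkcz cKO against controls (Fos, Junb, Egr1, Egr4, Npas4 and Nr4a1); none rose in either. A gene is said to fall or rise where limma's p, adjusted by the Benjamini-Hochberg method over all 14330 genes, was under 0.05. By that rule 1.51% of all genes tested fell in Prkci cKO (216 genes) and 0.621% in Prkcz cKO (89 genes). The median difference over the 10 members was -0.99 in Prkci cKO and -1.10 in Prkcz cKO on the log2(value + 0.5) scale, against 0.0021 and -0.0061 over all genes tested. The members were chosen with earlier results of these data known, so the shares and medians describe the set and do not test it. Both comparisons use the same 4 control libraries, so their likeness is not a separate result. In bulk tissue, fewer cells of a type and less RNA per cell cannot be told apart.

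The counts moved with single libraries and with the variance model. Without limma's variance trend, 1 member fell in Prkci cKO (Junb) and 1 in Prkcz cKO (Fos), against 1.12% and 0.174% of all genes. With one control left out at a time, the count of 5 in Prkci cKO became 3 (replicate 1), 8 (replicate 2), 2 (replicate 3) and 2 (replicate 4). Of all genes, 136, 171, 194 and 171 fell in these fits. The count of members became 1 without Prkci cKO replicate 1, 1 without replicate 2 and 3 without replicate 4. Of all genes, 139, 88 and 188 fell there. In Prkcz cKO the count of 6 became 2, 9, 3 and 3 when control replicate 1, 2, 3 or 4 was left out. Of all genes, 24, 47, 61 and 71 fell in these fits. The count of members became 0 without Prkcz cKO replicate 2 and 0 without Prkcz cKO replicate 3. There 9 and 8 members still had an unadjusted p under 0.05 against 2032 and 1262 of all 14330 genes, and limma called 9 and 10 genes lower in all. Leaving out Prkci cKO replicate 1 or 2, which enter the Prkcz comparison only through the shared spread, gave 3 members, with 49 and 45 of all genes. All 10 differences in Prkci cKO stayed below 0 under all 22 alternatives tried.

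The AP-1 genes Fos and Junb fell in both knockouts, and Fosb passed the test in neither. Fos was 10.90, 11.82, 15.24 and 11.78 in Prkci cKO, 12.68, 5.96 and 6.10 in Prkcz cKO, and 36.10, 18.60, 45.28 and 50.63 in controls. Every knockout library lay below every control, and control replicate 2 came closest to them. Fos fell by 1.48 on the log2 scale in Prkci cKO (SE 0.278, 95% interval -2.08 to -0.88, limma adjusted p = 0.0141) and fell by 2.12 in Prkcz cKO (SE 0.300, adjusted p = 0.00964). These are means at 33.0% and 21.9% of the control mean.

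Junb, the Jun family partner in AP-1, was 16.84, 22.66, 31.20 and 23.11 in Prkci cKO, 27.62, 23.83 and 23.44 in Prkcz cKO, and 56.22, 37.92, 62.80 and 58.13 in controls. Neither knockout overlapped the controls, and the knockouts overlapped each other. Junb fell by 1.19 in Prkci cKO (SE 0.169, limma adjusted p = 0.00226) and fell by 1.07 in Prkcz cKO (SE 0.182, adjusted p = 0.0215). It is the member whose call in Prkci cKO held under all 22 alternatives. Fosb was 10.65, 9.24, 10.33 and 9.26 in Prkci cKO, 11.50, 9.09 and 7.18 in Prkcz cKO, and 16.41, 7.55, 17.71 and 19.84 in controls. Control replicate 2 lay below all Prkci cKO libraries and within the Prkcz cKO range, and the other 3 controls lay above every knockout library. The differences of Fosb were -0.53 (SE 0.230, limma adjusted p = 0.367) and -0.64 (SE 0.248, adjusted p = 0.248) in Prkci cKO and Prkcz cKO.

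**Figure D1:**
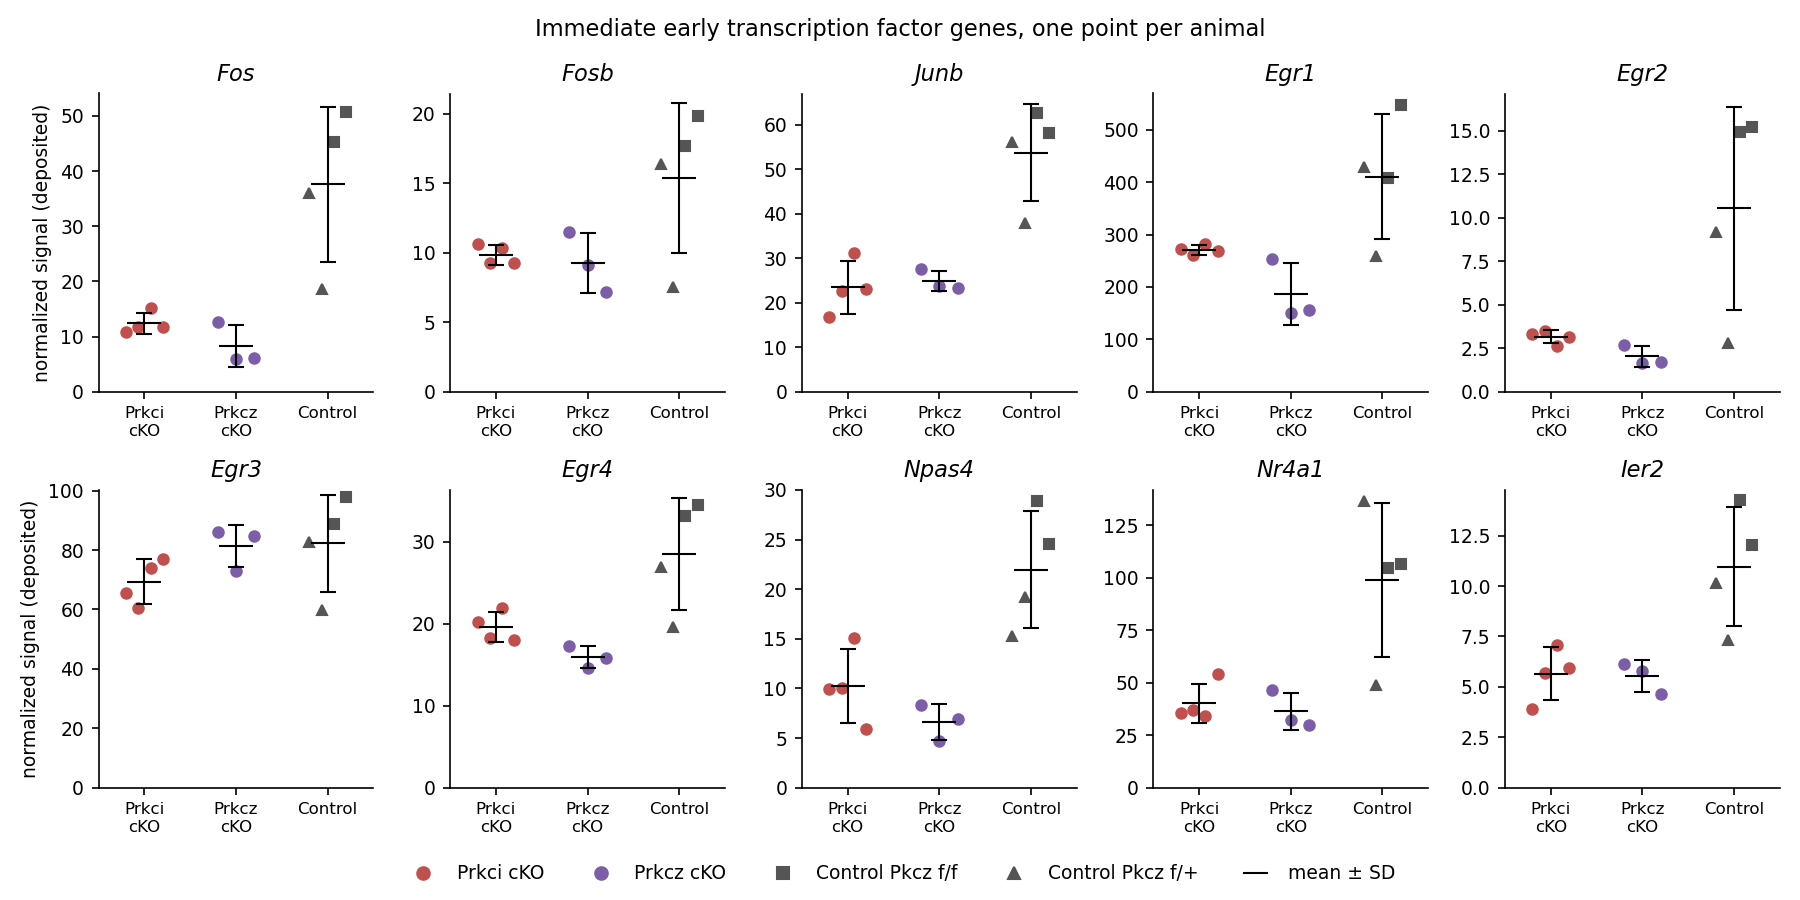
The normalised signal of each of the 10 genes (vertical axes, scaled per gene) in every library of Prkci cKO, Prkcz cKO and controls, with bars at the group means. The controls are higher and wider than the knockouts for most genes, with control replicate 2 the lowest control for 9 of the 10, and Egr3 overlaps between all groups.

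The EGR genes differed among themselves. Egr1, the most abundant member and a zinc finger factor of synaptic plasticity, was 272.84, 260.34, 281.64 and 267.68 in Prkci cKO, 253.95, 150.12 and 155.51 in Prkcz cKO, and 428.80, 258.80, 407.31 and 548.15 in controls. All Prkcz cKO libraries lay below all controls, while control replicate 2 lay below the Prkci cKO libraries. Egr1 fell by 1.13 in Prkcz cKO (SE 0.208, limma adjusted p = 0.0307), and its difference in Prkci cKO was -0.55 (SE 0.192, adjusted p = 0.235).

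Egr2, a paralog needed in hindbrain patterning and Schwann cell myelination, was 3.33, 3.51, 2.65 and 3.12 in Prkci cKO, 2.71, 1.68 and 1.69 in Prkcz cKO, and 9.19, 2.80, 14.90 and 15.23 in controls. All Prkcz cKO libraries lay below all controls, and control replicate 2 lay inside the Prkci cKO values and far below the other 3 controls. The differences of Egr2, -1.37 in Prkci cKO (SE 0.374, limma adjusted p = 0.0999) and -1.92 in Prkcz cKO (SE 0.403, adjusted p = 0.0510), did not pass the threshold although their size is near that of Fos. At the estimated depth, the lowest value of Egr2 stood for about 25 reads and the highest for about 325.

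Egr4, a paralog best known from the male germ line, was 20.17, 18.26, 21.95 and 18.03 in Prkci cKO, 17.33, 14.61 and 15.78 in Prkcz cKO, and 26.95, 19.54, 33.09 and 34.42 in controls. Prkcz cKO lay below both other groups in every library, and control replicate 2 lay among the Prkci cKO values. Egr4 fell by 0.79 in Prkcz cKO (SE 0.153, limma adjusted p = 0.0353), and its difference in Prkci cKO was -0.50 (SE 0.141, adjusted p = 0.114).

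Egr3, a paralog needed for muscle spindles, was 65.67, 60.65, 74.06 and 77.05 in Prkci cKO, 85.99, 73.09 and 84.67 in Prkcz cKO, and 82.83, 59.67, 88.63 and 97.68 in controls. The 3 groups overlapped. The differences were -0.23 in Prkci cKO (SE 0.125, limma adjusted p = 0.513) and 0.0027 in Prkcz cKO (SE 0.135, adjusted p = 0.994), the second with a 95% interval from -0.287 to 0.293. That interval lies above the fitted differences of the other 9 members in Prkcz cKO, but it overlaps the interval of Fosb (-1.18 to -0.109). The ratio of Egr3 to Egr1 signal was computed in each library after these values were seen, as a description. The ratio was 0.241, 0.233, 0.263 and 0.288 in Prkci cKO, 0.339, 0.487 and 0.544 in Prkcz cKO, and 0.193, 0.231, 0.218 and 0.178 in controls. The 3 groups did not overlap in this ratio, although Prkci cKO replicate 2 and control replicate 2 nearly met. The pair was picked from these values, so the separation is no test. How often other gene pairs separate the groups was not computed.

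**Figure D2:**
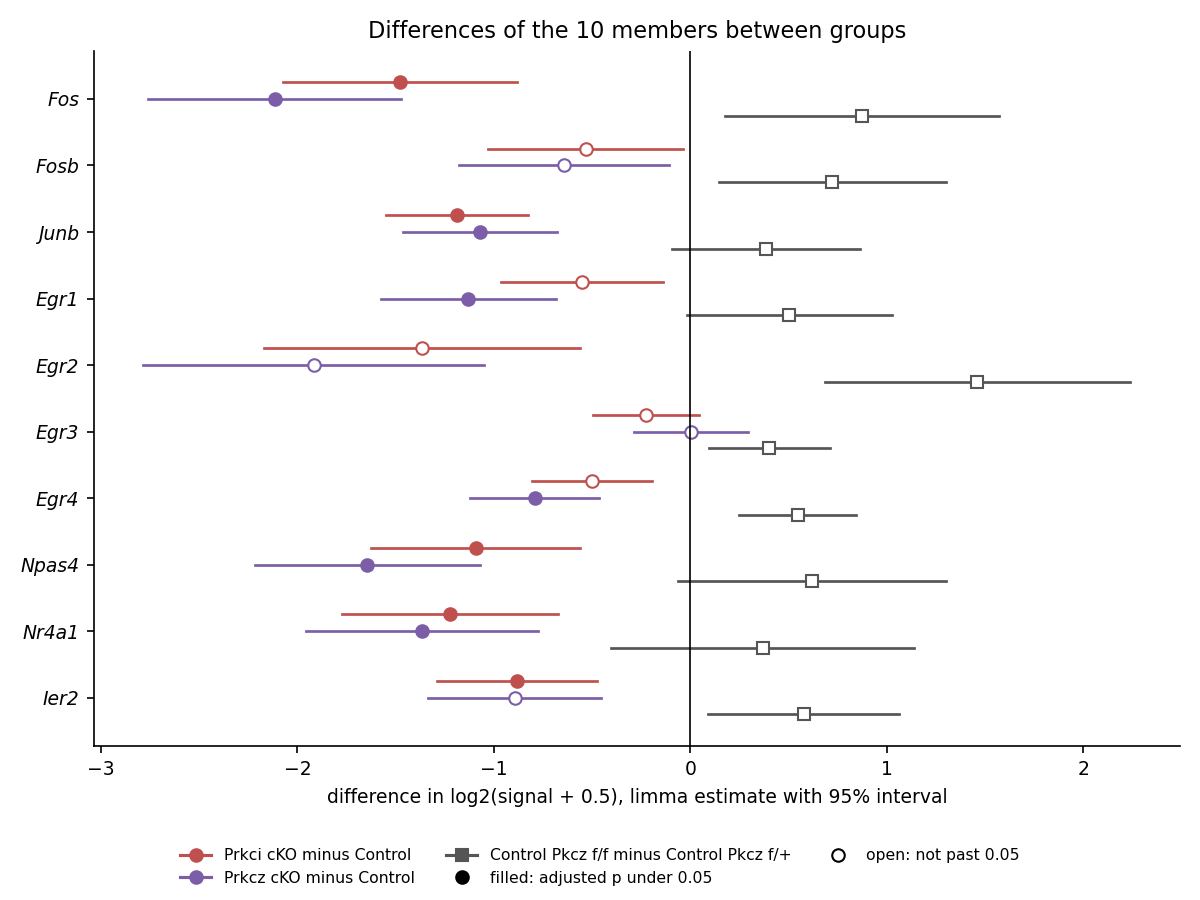
Fitted log2 differences (horizontal axis, log2(value + 0.5) scale) of the 10 genes in Prkci cKO and Prkcz cKO against controls, and in Control Pkcz f/f against Control Pkcz f/+, with 95% intervals. Filled points have limma's adjusted p under 0.05 and open points do not. In the knockouts Fos, at -1.48 and -2.12, and Egr2, at -1.37 and -1.92, lie far below Egr3 at -0.23 and 0.0027. Both knockout comparisons share the controls. All 10 differences between the control genotypes lie above 0, and none is filled.

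Npas4 and Nr4a1 fell in both knockouts, and Ier2 in Prkci cKO. Npas4, a neuron-selective factor induced by calcium entry, was 9.94, 10, 15.08 and 5.96 in Prkci cKO, 8.34, 4.72 and 6.91 in Prkcz cKO, and 15.31, 19.22, 28.83 and 24.50 in controls. No knockout library reached the lowest control, which for this gene was replicate 1 and not replicate 2. Npas4 fell by 1.09 in Prkci cKO (SE 0.247, limma adjusted p = 0.0419) and fell by 1.64 in Prkcz cKO (SE 0.267, adjusted p = 0.0210).

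Nr4a1 was 35.52, 37.28, 33.98 and 54.09 in Prkci cKO, 46.54, 32.44 and 30.14 in Prkcz cKO, and 136.64, 48.79, 104.55 and 106.67 in controls. Prkci cKO replicate 4 was above control replicate 2, and the other knockout libraries were below every control. Nr4a1 fell by 1.22 in Prkci cKO (SE 0.255, limma adjusted p = 0.0259) and fell by 1.37 in Prkcz cKO (SE 0.275, adjusted p = 0.0407).

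Ier2 was 3.91, 5.69, 7.08 and 5.96 in Prkci cKO, 6.16, 5.78 and 4.67 in Prkcz cKO, and 10.15, 7.33, 14.27 and 12.06 in controls. All knockout libraries were below all controls, with Prkci cKO replicate 3 just under control replicate 2. Ier2 fell by 0.88 in Prkci cKO (SE 0.190, limma adjusted p = 0.0315), and its difference of -0.89 in Prkcz cKO (SE 0.205, adjusted p = 0.0698) was as large and did not pass.

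Counted over libraries without a model, 4 of the 10 members had every Prkci cKO library below every control (Fos, Junb, Npas4 and Ier2), against 5.32% of all genes tested. In Prkcz cKO the count was 8 of 10, all but Fosb and Egr3, against 6.72% of all genes.

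Between the knockouts no member passed the test in Prkci cKO against Prkcz cKO, where limma called 34 genes higher (0.237%) and 9 lower (0.0628%) of all genes tested. One member of 10, Egr1, had an unadjusted p under 0.05, against 16% of all genes. Egr1 differed by 0.58 (SE 0.208, 95% interval 0.13 to 1.03, limma adjusted p = 0.232), and all 4 Prkci cKO libraries were above all 3 of Prkcz cKO. Egr4 also had no overlap in that direction, with a difference of 0.29 (limma adjusted p = 0.362), and 7.36% of all genes shared that separation. Fos differed by 0.64 with an interval from -0.0074 to 1.28, and Egr3 by -0.23 with an interval from -0.519 to 0.0606. The intervals leave room for differences of either size, so the knockouts were not shown to be alike or unlike for these genes. Prkcz cKO replicate 1 was the highest of its group for all 10 members, and for Fos it was 12.68 against 5.96 and 6.10 in the other 2.

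The control genotypes were compared because both kinds of control enter every comparison above. In Control Pkcz f/f against Control Pkcz f/+, with 2 libraries each, all 10 members were above 0, with a median of 0.56, and none passed the test. Limma called 9 genes higher in f/f (0.0628% of all genes tested), and 6 members had an unadjusted p under 0.05, against 12.6% of all genes. The 7 oligodendrocyte markers were all below 0 in the same comparison, with a median of -0.38, 0 of them past the threshold and 6 at an unadjusted p under 0.05; their summed signal was 4369 to 4821 in Control f/f and 5750 to 6736 in Control f/+. The part of that difference in the values of the members was not tested. For 8 members, all but Egr1 and Nr4a1, both f/f controls lay above both f/+ controls, a separation that 23.2% of all genes showed. Egr2 differed most, by 1.46 (SE 0.360, limma adjusted p = 0.183), and Nr4a1 by 0.37 (adjusted p = 0.689). Within the f/+ pair the members were far apart: Fos was 36.10 and 18.60, and Nr4a1 136.64 and 48.79, in replicates 1 and 2. With only the f/f controls, 6 members fell in Prkci cKO and 7 in Prkcz cKO, against 0.677% and 0.279% of all genes tested. With only the f/+ controls, 1 member fell in Prkci cKO and 2 in Prkcz cKO, against 1.84% and 1.28% of all genes tested.

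Over the 11 libraries, deviations of the members from their group means mostly went the same way. After the group means were removed, the 45 pairs of members had correlations over the 11 libraries with a median of 0.716, and 44 of the 45 were above 0. The highest were Fos with Egr1 at 0.947, Junb with Ier2 at 0.936 and Fosb with Egr2 at 0.929, and the lowest Npas4 with Nr4a1 at -0.171. These are descriptions over libraries that share the authors' normalisation. Control replicate 2 stood at -0.691 on the log2 scale from its group's mean over the 10 members, Prkcz cKO replicate 1 at 0.308 and Prkci cKO replicate 3 at 0.163. Control replicate 2 was the lowest control for 9 members, and Prkcz cKO replicate 1 the highest of its group for 10. In Prkci cKO, replicates 1 to 4 were lowest for 3, 3, 2 and 2 members and highest for 1, 1, 6 and 2. How far single libraries set the correlations, and the median over pairs of other genes, were not computed. Fos followed the mean of the members most closely (r = 0.975) and Npas4 least (r = 0.468).

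**Figure D3:**
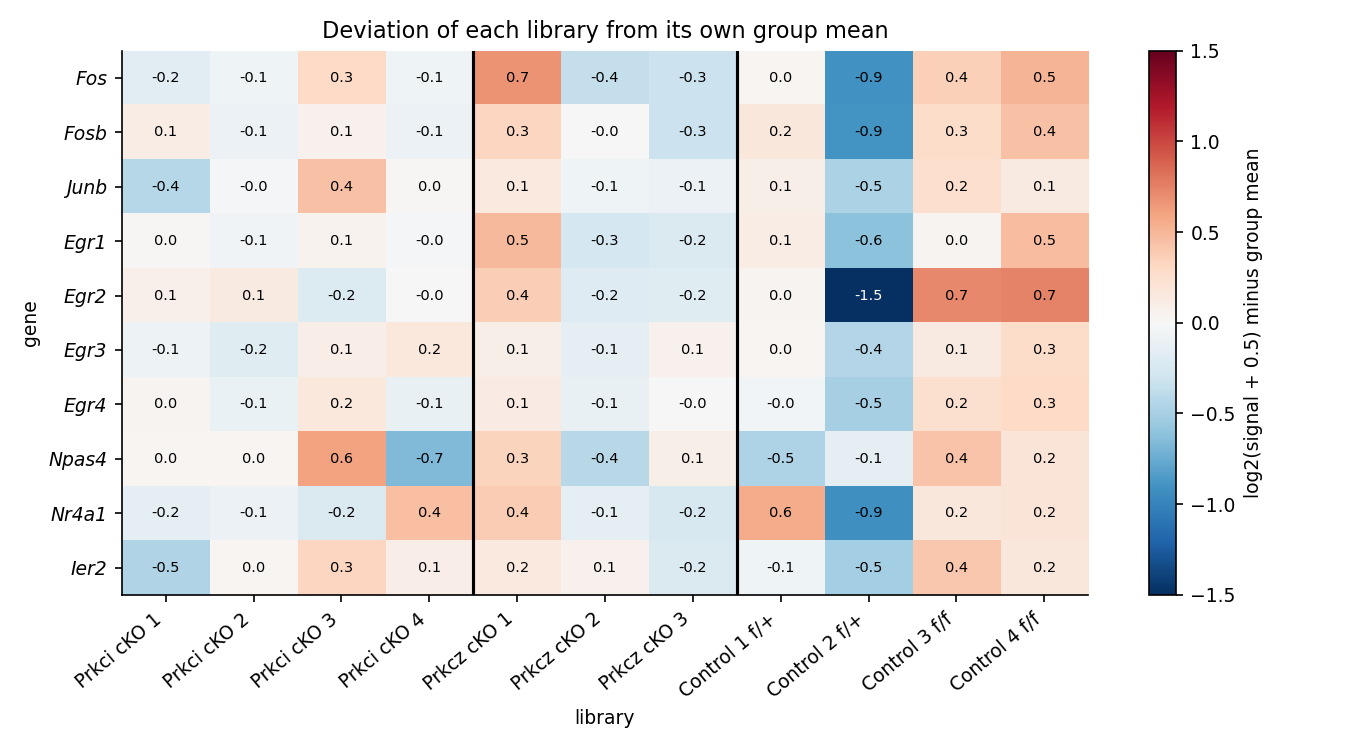
Deviation of each library from its own group's mean (log2 scale, colour and figures in the cells) for the 10 genes. Control replicate 2 is the lowest control for every gene but Npas4, and Prkcz cKO replicate 1 is the highest of its group in all 10.

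Genes outside the 10 whose deviations were most like the members' mean over the 11 libraries were Agk (0.968), Pik3cg (0.934), Gm16532 (0.931), Tnfrsf21 (0.929), Tuba8 (0.922), Pard6b (0.921), C030019I05Rik (0.915), Rtn4rl2 (0.914), Otud7a (0.913) and Ccdc25 (0.906), where the median over all genes kept was 0.0121. They are the highest of 14330 correlations over few libraries, and nothing is read from them.

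Summed over the 10 members, the signal was 449.77, 439.45, 493.21 and 476.04 in Prkci cKO, 472.82, 321.32 and 336.09 in Prkcz cKO, and 818.6, 480.22, 817.37 and 967.31 in controls, with Egr1 as the largest part. Control replicate 2 lay within the Prkci cKO range for this sum. On average over the 10 members, control replicate 2 ranked 5.8 of 11 libraries from the lowest, against 9 to 10.6 for the other controls, 4.5 to 6.1 for Prkci cKO and 2.3 to 5.5 for Prkcz cKO.

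**Figure D4:**
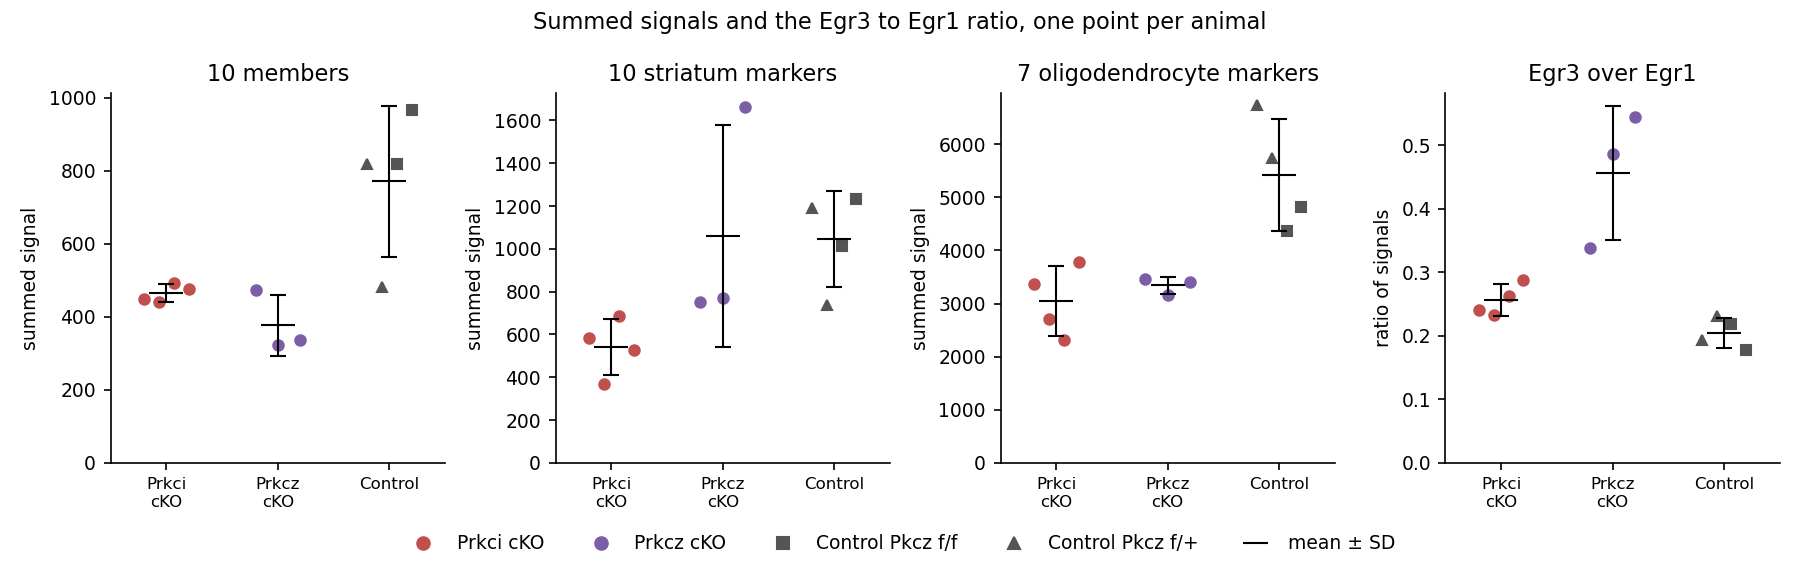
The summed normalised signal of the 10 genes, of 10 striatum markers and of 7 oligodendrocyte markers, and the ratio of Egr3 to Egr1 signal, in every library of Prkci cKO, Prkcz cKO and controls. Control replicate 2 with a sum over the 10 genes of 480.22 lies beside the Prkci cKO libraries (439.45 to 493.21), and the ratio is highest in Prkcz cKO (0.339 to 0.544).

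To compare levels between genes, signal was divided by the length of the union of exons, giving signal per kilobase. In controls the order was Egr1 (91.6 ± 26.5, SD, n = 4), Nr4a1 (28.3 ± 10.4), Junb (23.4 ± 4.75), Egr3 (18.7 ± 3.68), Fos (16 ± 5.97), Egr4 (13.3 ± 3.17), Ier2 (7.20 ± 1.93), Npas4 (5.31 ± 1.43), Egr2 (3.10 ± 1.72) and Fosb (2.46 ± 0.866). Egr1 stood above the rest by more than the spread of both, while neighbours from Nr4a1 to Egr4, Ier2 and Npas4, and Egr2 and Fosb, differed by less than the larger of their SDs. Egr1 was first in the knockouts too, at 60.4 ± 2.0 per kilobase in Prkci cKO (SD, n = 4) and 41.6 ± 13.0 in Prkcz cKO (SD, n = 3). Egr3 came next in both knockouts, at 15.7 ± 1.71 and 18.4 ± 1.61. Fos, at 5.29 ± 0.815 in Prkci cKO and 3.51 ± 1.63 in Prkcz cKO, stood below Egr4 in the knockouts and above it in controls.

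In the mouse genome (GRCm38, GENCODE M21 gene bounds) Fos spans 85473890 to 85477273 of chromosome 12, Junb 84974484 to 84978718 of chromosome 8 and Nr4a1 101254269 to 101274795 of chromosome 15. Npas4 spans 4984355 to 4990316 of chromosome 19, Egr2 67535475 to 67542188 of chromosome 10 and Egr3 70077203 to 70082614 of chromosome 14. Egr4 spans 85511121 to 85513589 of chromosome 6, Fosb 19302696 to 19310051 of chromosome 7 and Ier2 84661331 to 84662852 of chromosome 8. Values are per gene and cover all exons. Junb overlaps Prdx2, an antioxidant enzyme gene on the other strand, and the sources used here do not say whether counting used strand. Prdx2 was 130 ± 4.29 in Prkci cKO (SD, n = 4), 137 ± 12 in Prkcz cKO (SD, n = 3) and 123 ± 0.638 in controls (SD, n = 4), with differences of 0.08 and 0.15 (limma adjusted p = 0.557 and 0.216).

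Genes around the members in the pathway were read from lists. Counts at an unadjusted p under 0.05 are to be read against 12.1% of all genes in Prkci cKO and 15.0% in Prkcz cKO. Of 24 upstream regulators, among them CREB, SRF, MEF2 and kinase genes, none passed limma's test in either knockout (1 higher in Prkci cKO and 1 lower in Prkcz cKO at an unadjusted p under 0.05), with median differences of 0.056 in Prkci cKO and -0.081 in Prkcz cKO. Srf itself differed by -0.03 and -0.20. Of 15 partners and paralogs tested, none passed limma's test (3 in Prkci cKO and 4 in Prkcz cKO at an unadjusted p under 0.05), with medians of -0.098 and -0.038. Jun, the classical partner of Fos, differed by -0.15 and 0.03, and Nr4a2, a paralog of Nr4a1, by -0.04 and -0.08 in Prkci cKO and Prkcz cKO. Fosl2 differed by -0.42 in each.

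Of 12 other rapidly induced transcription regulators tested, 2 fell in Prkci cKO and 0 in Prkcz cKO by limma (6 lower and 2 higher there at an unadjusted p under 0.05). Klf10, a zinc finger repressor, fell by 0.80 in Prkci cKO (limma adjusted p = 0.00526) and differed by -0.45 in Prkcz cKO. Csrnp1, a nuclear factor first described as induced by axin, fell by 0.80 in Prkci cKO (limma adjusted p = 0.0140) and differed by -0.50 in Prkcz cKO.

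Of 23 effector genes of the immediate early response tested, 6 fell in Prkci cKO (Arc, Dusp1, Sik1, Gadd45b, Cyr61 and Arl4d) and 4 in Prkcz cKO (Arc, Dusp1, Dusp6 and Sik1). Under the alternatives, the calls in Prkci cKO held in 22 of 22 for Arc, Dusp1 and Sik1, 17 for Gadd45b and 15 for Arl4d. That of Cyr61 (limma adjusted p = 0.0498) held in 7 of 21. Calls in Prkcz cKO held in 17 of 22 for Sik1, 16 for Arc and 11 each for Dusp1 and Dusp6. The list's median differences were -0.34 and -0.29. Arc, which encodes a synaptic cytoskeletal protein that drives AMPA receptor uptake, was 29.61, 43.90, 62.36 and 80.99 in Prkci cKO, 75.33, 41.93 and 39.69 in Prkcz cKO, and 260.38, 107.62, 264.40 and 263.41 in controls. Every knockout library was below every control, and control replicate 2 was again the lowest control. Arc fell by 2.04 in Prkci cKO (limma adjusted p = 0.00543) and fell by 2.06 in Prkcz cKO (adjusted p = 0.0231). Dusp1, a phosphatase that switches off MAP kinases, fell by 1.13 in Prkci cKO (limma adjusted p = 0.00486) and fell by 1.01 in Prkcz cKO (adjusted p = 0.0353). Sik1, a salt-inducible kinase, fell by 0.79 in both (limma adjusted p = 0.00439 and 0.0215).

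Markers of stress and of other cells were read beside these genes, with the same 12.1% of all genes in Prkci cKO and 15.0% in Prkcz cKO at an unadjusted p under 0.05. Of 16 stress and steroid response genes tested, 1 fell in Prkci cKO (Ddit4, an inhibitor of mTOR signalling, by 0.53, limma adjusted p = 0.00425) and 0 in Prkcz cKO (2 at an unadjusted p under 0.05). The summed signal of that list was 779 to 822 in Prkci cKO, 799 to 863 in Prkcz cKO, 936 to 989 in Control f/f and 800 to 803 in Control f/+. In Control f/f against Control f/+, the effector Cyr61 was higher by 1.24 (limma adjusted p = 0.0141) and the chaperone gene Dnajb1 of the stress list by 0.41. Of 10 neuron markers none passed in either knockout (2 higher and 1 lower in Prkci cKO and 3 higher in Prkcz cKO at an unadjusted p under 0.05), and their summed signal was 9702 to 10450 in Prkci cKO, 10080 to 10510 in Prkcz cKO and 9702 to 10000 in controls. Of 10 striatum markers none passed by limma in either knockout, while 9 had an unadjusted p under 0.05 in Prkci cKO and 0 in Prkcz cKO, and all 10 were below 0 in Prkci cKO. None of them was at 0 in any library, and Adora2a, the adenosine receptor of striatal neurons, was 6.31 to 20.10 in Prkci cKO, 24.87 to 72.81 in Prkcz cKO and 27.53 to 50.80 in controls. The list had a summed signal of 370 to 684 in Prkci cKO, 750 to 1661 in Prkcz cKO and 740 to 1233 in controls, where replicate 2 had the lowest sum. In Prkcz cKO the highest sum was that of replicate 3, in which most members were low. Of 7 oligodendrocyte markers, 6 fell in Prkci cKO and 2 in Prkcz cKO, with sums of 2316 to 3788 in Prkci cKO, 3165 to 3470 in Prkcz cKO and 4369 to 6736 in controls, none of them at 0 in any library. All 7 were lower at an unadjusted p under 0.05 in each knockout. Of 6 endothelial markers 2 fell in Prkcz cKO (Flt1 and Kdr), and of 6 astrocyte markers 1 did (Aqp4), with 0 of either list in Prkci cKO. At an unadjusted p under 0.05 in Prkci cKO, 3 endothelial markers were higher and 0 lower, and 1 astrocyte marker was higher and 2 lower. In Prkcz cKO, 5 endothelial and 3 astrocyte markers were lower at that level and 0 of either list higher. Of 14 cortical layer, 6 microglia, 3 hippocampus and 3 blood cell markers none passed in either knockout; at an unadjusted p under 0.05 there were 7 layer markers (2 higher and 5 lower), 1 microglia marker (higher) and 0 of the other lists in Prkci cKO, and 2 microglia markers (lower) and 0 of the other lists in Prkcz cKO. The part of these markers in the immediate early gene results was not tested.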

How the data were processed

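The single expression table held 16228 genes in 11 libraries. The submitters' processing notes name edgeR, RSEM, STAR, Trim Galore and FastQC on GRCm38, with no versions. The signal values were normalised by the authors, deposited with 2 decimals, and their scaling is not described. Low values lay within 0.005 of whole multiples of one step for 85.9% to 89.2% of values under 0.5, too few to recover whole reads, so no count test was run.

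Values were taken as log2(value + 0.5), which understates the change of low genes, and 14330 genes were kept, those that reached 1 in 3 or more libraries. All 11 libraries, 1 per mouse and biological replicates per the series' design text, entered one limma 3.58.1 fit in R 4.3.3, with a variance trend, no covariate and 8 residual degrees of freedom. The control genotypes came from a fit of 4 groups with 7. P-values are two-sided. Correlations use deviations from group means. The fit was tested on simulated data. Positions come from GENCODE M21 and promoters from RefSeq (GRCm38.p6). Drawing used matplotlib 3.10.9.

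Named by rule were the 10 members, Prkci and Prkcz, up to 4 genes of each pathway list with the smallest p, and the 10 genes most like the members' mean; other genes were named after their values were seen. The members and lists were chosen with earlier results of these data known. Alternatives changed the pseudocount, filter, scaling, variance model, samples, controls and replicate block, and left out each library.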

Additional observations from a re-analysis of the deposited data

Results flagged for a closer look

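Nr4a1 in Prkci cKO replicate 4 was 54.09, far from the 33.98 to 37.28 of the other 3 libraries of its group, by Dixon's criterion for 4 samples (critical value 0.829). It was the 1 such value among 20 gene and group sets of 4 libraries examined, and chance gives about 1 in 20.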

How the results depend on the processing

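The counts moved with single libraries, the choice of controls and the variance model. Members that fell are given here with the number of all genes that fell in brackets. In Prkci cKO, 5 as reported (216), they numbered 1 without a variance trend (160), 1 with only the f/+ controls (264) and 1 to 8 with 1 library left out (88 to 313). In Prkcz cKO, 6 as reported (89), they numbered 3 with only the 2 groups compared (26) and 2 with only the f/+ controls (184). They numbered 1 there without a variance trend (25), and 0 to 9 with 1 library left out (9 to 107). The cause of these changes was not tested. Between the knockouts the count was 0 throughout, and in Control f/f against Control f/+ it was 0 to 1 (Egr2, without control replicate 1). Some signs changed. Egr3 in Prkcz cKO was -0.198 with only the f/f controls and -0.143 to 0.0929 with 1 library left out. In Prkci cKO against Prkcz cKO, Ier2 was -0.00956 with equal sums without Rn45s, -0.0339 with the replicate block and -0.0981 to 0.162 with 1 library left out, where Junb was -0.263 to 0.0273, Nr4a1 -0.00566 to 0.333 and Fosb -0.0516 to 0.270. Nr4a1 in Control f/f against Control f/+ was -0.370 to 1.11 with 1 library left out. Of 1208 single-gene values under alternatives, 1032 kept direction and side of the threshold, 147 lost it, 15 gained it and 14 changed sign. That total takes in comparisons without any called member, where few calls could be lost. Under 22 alternatives, calls in Prkci cKO held in 22 for Junb, 18 for Fos, 14 each for Npas4 and Ier2 and 13 for Nr4a1. Those in Prkcz cKO held in 20 for Fos, 19 for Npas4, 17 for Junb, 12 for Egr1 and 11 each for Egr4 and Nr4a1. The labels give no pairing by replicate number. The deviations of libraries with the same number correlated at -0.186 to 0.196. Libraries with different numbers were not compared in this way, so these values cannot decide whether samples were paired. With the replicate block 5 members fell in Prkci cKO and 6 in Prkcz cKO, against 1.67% and 0.461% of all genes. The lowest estimated read number of any member was about 25, for Egr2 in Prkcz cKO replicate 3. The effect of depth was not tested.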
